A study of Mus musculus with 8 samples.

Results

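The genes of the 26S proteasome and of its regulators were followed in the transcriptome of mouse intestinal organoids. Members were protein-coding genes whose mouse symbol begins with Psma, Psmb, Psmc, Psmd, Psme, Psmf or Psmg, without the immunoproteasome genes Psmb8 and Psmb9, and with a mean of at least 0.5 FPKM, a fragment count scaled to transcript length and to the size of the library. Of 48 genes with such a symbol, 43 had a value under their own identifier and were members, among 10707 genes tested in all. They comprised 7 genes of the alpha ring and 7 of the beta ring of the core particle, 8 of the base and 8 of the lid of the regulatory cap, 7 assembly chaperones and 5 activators or inhibitors. The remaining member, Psmc3ip, shares only the symbol: it encodes a partner protein used in meiotic recombination and is no proteasome subunit. Psma8, Psmb11, Psmb5, Psmd1 and Psme2b had no start or end entry under their identifier.

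The proteasome is the protease that degrades proteins tagged with ubiquitin chains. Its core is a barrel of stacked rings, with outer alpha rings that gate the entry and inner beta rings that hold the peptide-cutting sites. The cap binds ubiquitinated proteins, its base unfolds them with a ring of ATPases, and its lid cuts off the ubiquitin chain. Psmb8, Psmb9 and Psmb10 encode replacement subunits of the immunoproteasome, which interferon-γ induces, and the factor NFE2L1 raises transcription of subunit genes when proteasome activity falls short.

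The organoids were grown in Matrigel from crypts of the small intestine, and 4 WT samples were compared with 4 MG53-TG samples, from mice that carry a transgene for the muscle protein MG53. The text of the study names the genotypes MG53;Lgr5 and Lgr5 in one place, whereas the labels give only WT and MG53-TG, and neither the promoter of the transgene nor the age of the mice was given in the sources used here. The comparison asks which proteasome genes differ with MG53 overexpression, and whether core and cap genes differ alike. Nothing states that the samples came from separate animals, so the p-values measure the spread between these samples, which may be technical. Trim72, which encodes MG53, was at 16.4, 27.4, 31.9 and 36.5 FPKM in MG53-TG 1 to 4. In the 4 WT samples it had no end entry and was set to 0 FPKM, which is not a measured level.

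The depth of each sample is unknown, since the deposited values were FPKM. The FPKM summed over transcription starts ranged from 269837 to 273797 in WT and from 269094 to 284330 in MG53-TG. All 10 epithelial markers had a value, with sums of 2377 to 2704 FPKM in WT and 1911 to 2400 FPKM in MG53-TG; 7 were called lower, such as Cdh1 and Krt18, and 1 higher. Of 8 immune markers, 3 had a value, and they summed to at most 0.153 FPKM in WT and to 0.119 to 0.296 FPKM in MG53-TG, where Lyz2 was higher in every sample (0.187 FPKM on average, against 0.0297 FPKM in WT). MG53-TG samples 3 and 4 stood apart from samples 1 and 2: across genes, log2 values correlated at r = 0.977 between samples 1 and 2 and at 0.975 between 3 and 4, but at 0.942 to 0.956 between the pairs, against 0.972 to 0.976 among WT samples. The 10 proliferation genes summed to 515 to 557 FPKM in WT and to 376, 378, 187 and 134 FPKM in MG53-TG 1 to 4, and the 5 stem cell markers to 342 to 497 FPKM in WT and 167, 181, 48.6 and 32.8 FPKM in MG53-TG. The 8 enterocyte markers summed to 859 to 1033 FPKM in WT and to 11280 to 12262 FPKM in MG53-TG. The secretory markers summed to 704 to 807 FPKM in WT and to 579 to 726 FPKM in MG53-TG, with 4 of 6 tested lower (among them Muc2) and 2 higher (among them Chga). Of 8 mesenchymal markers, 4 had a value, with sums of 0 FPKM in WT, where they had no entry, and at most 4.63 FPKM in MG53-TG. The 2 tested, Col3a1 and Col1a2, reached a mean of 0.5 FPKM only through MG53-TG 2 to 4. Their absent entries were set to 0 in WT but left out as missing in MG53-TG 1. Their calls as higher rest on this unequal handling and are not read as a result. With them set aside, genes of each list other than the immune and mesenchymal ones were called between the genotypes. The part of these genes in the results on proteasome genes was not tested. In these bulk samples, fewer cells of a type and less RNA per cell cannot be told apart.

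Of the 43 members, 12 were lower in MG53-TG by limma at a Benjamini-Hochberg adjusted p of at most 0.05, which is 27.9% of them, and 29.3% of all genes tested were called lower. None was called higher, where 15.7% of all genes were, and 1 member, Psme2, was higher at an unadjusted p under 0.05. The share of members called lower was thus near the background. The median log2 fold change was -0.25 over the members and -0.17 over all genes tested, with 35 members below 0 and 8 above. At the pseudocount of 1, none of the members moved by more than 1 on the log2 scale, while 15.3% of all genes did, but Psmc3ip was at -1.71 with a pseudocount of 0.1 and at -1.18 with absent entries as 0. In 15 members the MG53-TG values all lay below the WT values, where 29.1% of all genes did so. In 0 members they all lay above, against 15.7% of all genes.

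**Figure D1:**
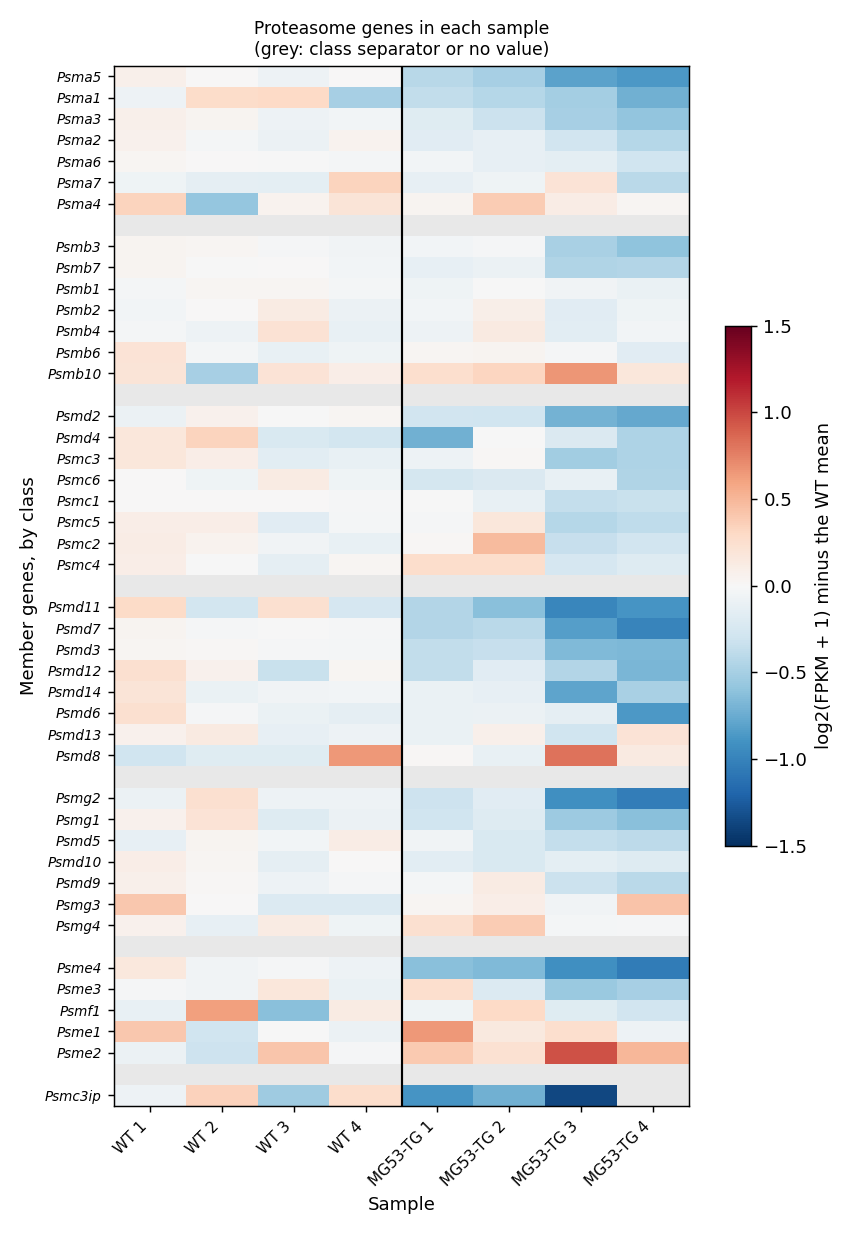
Difference of log2(FPKM + 1) from the WT mean (colour, blue below and red above) for each of the 43 members (rows, by class) in the 4 WT and 4 MG53-TG samples (columns), with grey for the class separators and for the missing value of Psmc3ip. Blue deepens in MG53-TG samples 3 and 4 in most of the alpha ring, base and lid, while Psmb1, Psmb2, Psmb4 and Psmb6 stay pale throughout.

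By class, and beside the 29.3% of all genes called lower, the genes called lower were 3 of 7 alpha ring genes, 0 of 7 beta ring genes, 1 of 8 base genes, 4 of 8 lid genes, 2 of 7 assembly chaperones, 1 of 5 activators or inhibitors, and Psmc3ip. After median-of-ratios scaling, 20.4% of all genes were called lower and 20.8% higher. The counts called lower were then 1 in the alpha ring, 0 in the beta ring, 1 in the base, 3 in the lid, 0 in the chaperones and 1 in the activators. Under the same scaling, 1 chaperone and 1 activator were called higher. The class medians of the log2 fold change were -0.25 in the alpha ring, -0.05 in the beta ring, -0.23 in the base, -0.40 in the lid, -0.18 in the chaperones and -0.06 in the activators. No test compared the classes.

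**Figure D2:**
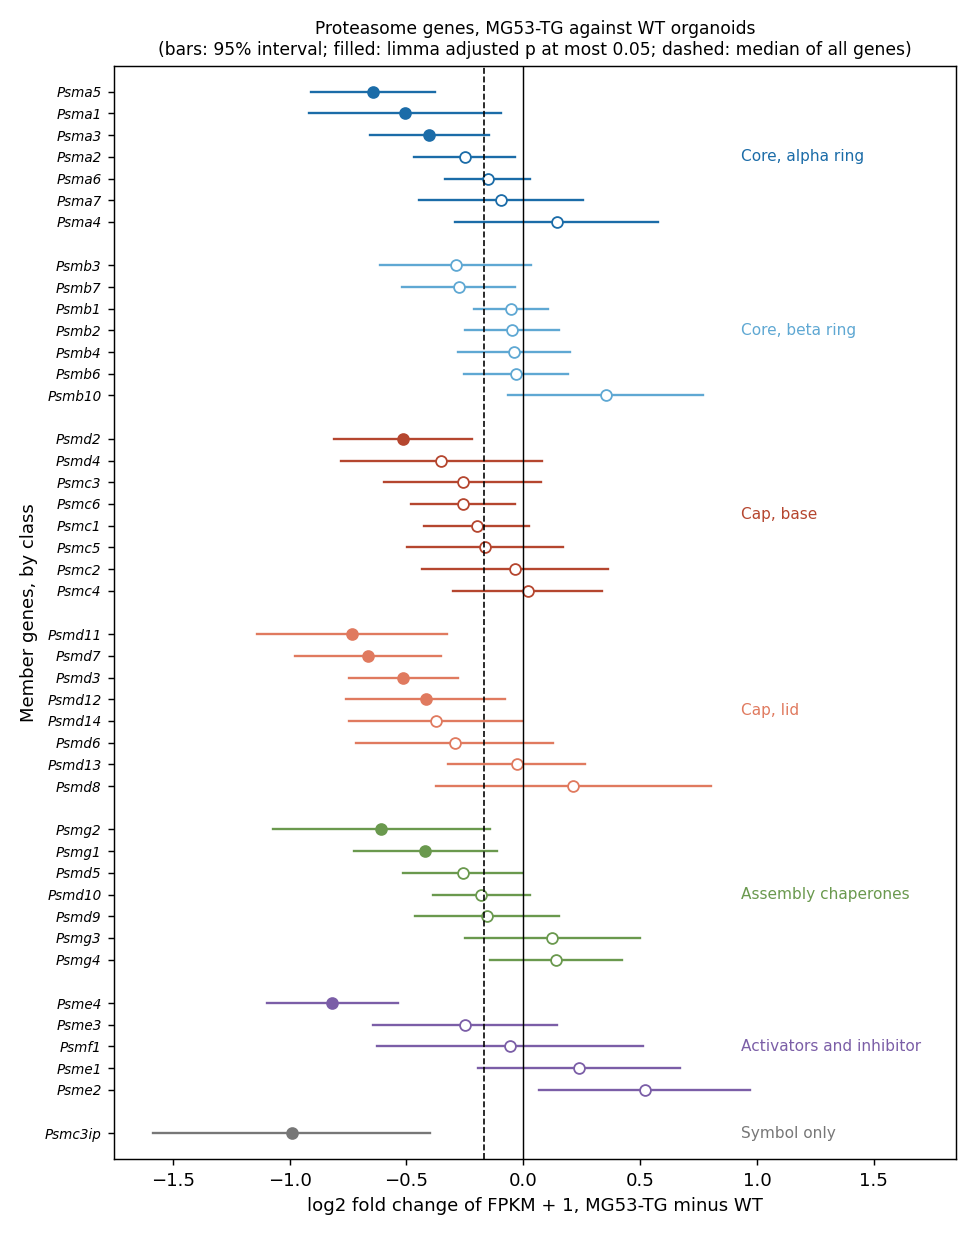
Log2 fold change of FPKM + 1 (x axis, MG53-TG minus WT) with its 95% interval for each member (y axis, by class), with filled points for a limma adjusted p of at most 0.05 and a dashed line at -0.17, the median of all genes tested. All 12 filled points lie left of 0, with Psmc3ip at -0.99, Psme4 at -0.82 and Psmd11 at -0.73 farthest out, and the 7 beta ring points are open.

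The promoters of 6 members are shown because they belong to the largest falls outside the core (Psme4, Psmd11), to 2 further cap genes that were called lower (Psmd2, Psmd12), to the alpha ring gene with the largest fall (Psma5) and to a catalytic beta ring gene with little difference (Psmb6). Each is the RefSeq sequence of GRCm38.p6 from 250 bases before to 50 bases after the annotated start, 5′ to 3′ on the gene's strand. Capitals mark CCGGAAG, which holds the GGAA core bound by factors of the ETS family, and TGACNNNGC, the core of the antioxidant response element bound by NFE2L1 and NFE2L2, each on either strand. The windows lie on the plus strand at chr11:30771525-30771824 for Psme4, chr11:80428365-80428664 for Psmd11, chr16:20651402-20651701 for Psmd2, chr11:107479278-107479577 for Psmd12, chr3:108256676-108256975 for Psma5 and chr11:70525107-70525406 for Psmb6.
Psme4: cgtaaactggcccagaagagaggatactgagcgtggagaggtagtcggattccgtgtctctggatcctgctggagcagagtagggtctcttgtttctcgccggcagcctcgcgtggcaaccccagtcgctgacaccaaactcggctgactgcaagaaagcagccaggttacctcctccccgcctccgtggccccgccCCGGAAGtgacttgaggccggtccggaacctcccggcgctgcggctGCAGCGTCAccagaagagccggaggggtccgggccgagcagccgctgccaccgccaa
Psmd11: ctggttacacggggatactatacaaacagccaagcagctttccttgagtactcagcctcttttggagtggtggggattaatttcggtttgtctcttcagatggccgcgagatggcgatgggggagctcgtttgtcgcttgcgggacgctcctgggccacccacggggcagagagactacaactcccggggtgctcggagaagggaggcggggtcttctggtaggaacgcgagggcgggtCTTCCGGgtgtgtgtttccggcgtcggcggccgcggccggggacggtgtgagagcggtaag
Psmd2: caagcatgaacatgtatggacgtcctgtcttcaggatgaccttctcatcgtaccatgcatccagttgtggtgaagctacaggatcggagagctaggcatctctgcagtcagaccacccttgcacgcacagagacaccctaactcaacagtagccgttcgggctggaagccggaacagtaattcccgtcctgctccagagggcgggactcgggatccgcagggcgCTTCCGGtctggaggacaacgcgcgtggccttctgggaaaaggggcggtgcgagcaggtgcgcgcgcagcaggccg
Psmd12: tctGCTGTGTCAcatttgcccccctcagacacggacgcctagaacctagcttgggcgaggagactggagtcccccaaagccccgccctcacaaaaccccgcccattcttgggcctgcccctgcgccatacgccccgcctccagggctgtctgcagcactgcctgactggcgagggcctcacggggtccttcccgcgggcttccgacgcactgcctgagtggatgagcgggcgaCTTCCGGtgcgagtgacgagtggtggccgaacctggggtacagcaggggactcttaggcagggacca
Psma5: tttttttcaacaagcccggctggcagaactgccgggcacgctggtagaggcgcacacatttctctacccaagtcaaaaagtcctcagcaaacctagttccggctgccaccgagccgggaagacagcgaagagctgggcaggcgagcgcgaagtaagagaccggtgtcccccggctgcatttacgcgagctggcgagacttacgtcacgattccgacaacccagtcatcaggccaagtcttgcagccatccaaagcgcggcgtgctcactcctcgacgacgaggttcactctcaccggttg
Psmb6: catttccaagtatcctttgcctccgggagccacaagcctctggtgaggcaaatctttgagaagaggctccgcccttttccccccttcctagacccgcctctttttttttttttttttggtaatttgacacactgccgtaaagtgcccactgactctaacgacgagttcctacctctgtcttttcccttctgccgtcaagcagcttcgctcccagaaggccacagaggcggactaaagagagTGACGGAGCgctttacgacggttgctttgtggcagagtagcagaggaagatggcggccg

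In these windows, CCGGAAG began 53 bases before the start in Psme4, 11 in Psmd11, 26 in Psmd2 and 17 in Psmd12, and it was found in neither Psma5 nor Psmb6. TGACNNNGC began 7 bases before the start in Psme4, 247 in Psmd12 and 9 in Psmb6. The leading start in the deposited tables was the RefSeq start in Psmd11, Psmd2 and Psma5, and lay 49 bases upstream of it in Psme4, 44 upstream in Psmd12 and 29 downstream in Psmb6.

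Promoters were matched for 36 of the 43 members, and Psmb1, Psmb2, Psmb7, Psmc3, Psmd3, Psmd7 and Psmg2 had no entry. CCGGAAG was present in 15 of the 36 members (41.7%), against 8.86% of all 32851 promoters and 21.6% of the 8297 tested genes with an entry. It was present in 9 of 13 cap genes (Psmc1, Psmc2, Psmc6, Psmd2, Psmd4, Psmd6, Psmd11, Psmd12 and Psmd13) and in 1 of 11 core genes (Psma6). Among the members called lower, 6 of 9 with an entry held it. Over all tested genes, however, 27.4% of those with CCGGAAG were called lower and 29.3% of those without it, with median log2 fold changes of -0.18 and -0.15. The longer form CGGAAGTG, which overlaps it, was in 5 of 36 members (13.9%), in 3.44% of all promoters and in 8.75% of the tested genes with an entry. TGACNNNGC was in 5 members (13.9%), in 12.4% of all promoters and in 16.9% of the tested genes. Its exact form TGACTCAGC was in 0 members, in 0.454% of promoters and in 0.506% of the tested genes. CCAAT, the box bound by NF-Y, was in 13 members (36.1%), in 37.4% of promoters and in 43.8% of the tested genes. This box was in 6 of 11 core genes, in 4 of 13 cap genes and in 3 of the 9 members called lower with an entry. The 5 motifs were searched on both strands with results of these data known, and a match describes letters in the window and not a bound site.

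None of the catalytic subunits of the beta ring passed the threshold. Psmb6, the β1 subunit (chromosome 11, 70525367 to 70527858), was at 103, 87.7, 82.4 and 85.2 FPKM in WT 1 to 4 and at 91.3, 92.0, 88.0 and 79.1 FPKM in MG53-TG 1 to 4, which is a log2 fold change, on the scale of FPKM + 1, of -0.03 ± 0.10 (SE) at a limma adjusted p of 0.820. The groups overlapped throughout, and the 95% interval ran from -0.25 to 0.19. Psmb7, the β2 subunit, was at 106, 102, 103 and 100.2 FPKM in WT and at 94.5, 96.8, 74.8 and 75.4 FPKM in MG53-TG. Here the groups did not overlap, with MG53-TG 3 and 4 lowest, but the difference did not pass the threshold (log2 fold change -0.28 ± 0.11, limma adjusted p = 0.0606). It passed after quantile normalization (-0.38, limma adjusted p = 0.0211) and without MG53-TG 1 or 2 (limma adjusted p = 0.0413 and 0.0282). It was at -0.087 after median-of-ratios scaling and at -0.10 without MG53-TG 3 and 4 (limma adjusted p = 0.407 and 0.250). Psmb5, the β5 subunit, is filed in the deposited tables under Mir686, a microRNA gene at the same locus. When start and end entries were assigned by exon boundaries instead, Psmb5 (chromosome 14, 54614119 to 54618022) was at 96.3, 89.6, 82.3 and 84.1 FPKM in WT and at 87.9, 92.3, 67.7 and 62.5 FPKM in MG53-TG. Only MG53-TG 3 and 4 lay below the WT range (log2 fold change -0.20 ± 0.14, limma adjusted p = 0.273).

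Psmb10, the inducible replacement for the β2 subunit (chromosome 8, 105935735 to 105938444), was the beta ring member with the highest log2 fold change. It was at 9.998, 5.81, 10.1 and 9.25 FPKM in WT and at 10.4, 10.99, 14.2 and 9.83 FPKM in MG53-TG (log2 fold change 0.35 ± 0.18, limma adjusted p = 0.147). The groups overlapped, with WT 2 low and MG53-TG 3 high. The log2 fold change was 0.19 without WT 2 and 0.53 after median-of-ratios scaling (limma adjusted p = 0.0547). The non-catalytic beta subunits Psmb1, Psmb2 and Psmb4 had log2 fold changes of -0.05, -0.05 and -0.04. The 95% interval for Psmb1 ran from -0.21 to 0.11, so a fall as large as that of Psma5 lay outside it. Psmb3 was at 123, 123, 119 and 116 FPKM in WT and at 117, 119, 85.3 and 78.4 FPKM in MG53-TG, with MG53-TG 1 and 2 inside the WT range and 3 and 4 below it (log2 fold change -0.29 ± 0.14, limma adjusted p = 0.128). It was at -0.43 after quantile normalization and at -0.099 after median-of-ratios scaling (limma adjusted p = 0.0397 and 0.481). Of the 7 beta ring genes, 1 (Psmb7) had an unadjusted p under 0.05.

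The 3 calls within the core were in the alpha ring. Psma5, the α5 subunit (chromosome 3, 108256926 to 108279974), was at 67.8, 64.5, 61.1 and 64.6 FPKM in WT and at 48.2, 45.3, 36.6 and 35.0 FPKM in MG53-TG, and fell by 0.64 ± 0.12 on the log2 scale (limma adjusted p = 0.00260). The groups were well apart, and the MG53-TG mean was 0.640 of the WT mean. Psma3, the α7 subunit, was at 21.7, 21.0, 19.5 and 19.9 FPKM in WT and at 17.9, 16.2, 14.2 and 13.2 FPKM in MG53-TG, and fell by 0.40 ± 0.11 without overlap (limma adjusted p = 0.0184). The call was lost after median-of-ratios scaling (log2 fold change -0.22, limma adjusted p = 0.0762) and held in 6 of 8 fits that left out a sample. Psma1, the α6 subunit, was at 52.3, 67.0, 68.1 and 38.8 FPKM in WT and at 42.6, 40.8, 38.5 and 32.99 FPKM in MG53-TG. It was called lower (log2 fold change -0.51 ± 0.18, limma adjusted p = 0.0477), although WT 4 lay among the MG53-TG values, and the call held in only 1 of 8 fits that left out a sample. Psma2 and Psma6 had no overlap between the groups, with MG53-TG below WT, but did not pass (log2 fold changes of -0.25 and -0.15). Psma4 and Psma7 overlapped, at 0.14 and -0.10.

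Within the cap, the lid carried most of the calls. Psmd11 (Rpn6), a scaffold that clamps the lid to the core (chromosome 11, 80428615 to 80473248), was at 21.9, 14.6, 21.1 and 14.7 FPKM in WT and at 12.9, 11.1, 8.53 and 9.15 FPKM in MG53-TG. It fell by 0.73 ± 0.18 on the log2 scale (limma adjusted p = 0.0106), with no overlap, although WT 2 and 4 lay close to MG53-TG 1. Psmd7 (Rpn8), the partner of the deubiquitinase (chromosome 8, 107580381 to 107588464), was at 71.7, 68.8, 69.3 and 69.0 FPKM in WT and at 51.2, 52.5, 38.9 and 34.7 FPKM in MG53-TG. The fall was 0.66 ± 0.14 (limma adjusted p = 0.00496), and the WT samples lay close together. Psmd3 (Rpn3, chromosome 11, 98682554 to 98695979) was at 62.8, 62.3, 60.6 and 60.1 FPKM in WT and at 47.4, 48.1, 38.4 and 38.2 FPKM in MG53-TG, a fall by 0.51 ± 0.10 (limma adjusted p = 0.00408). In both Psmd7 and Psmd3, MG53-TG 1 and 2 lay between the WT samples and MG53-TG 3 and 4.

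The rest of the lid gave weaker or no calls. Psmd12 (Rpn5) was at 46.5, 41.0, 30.9 and 40.1 FPKM in WT and at 30.1, 34.7, 28.7 and 24.0 FPKM in MG53-TG, with WT 3 below MG53-TG 2. Its fall by 0.42 ± 0.15 was at the edge of the threshold (limma adjusted p = 0.0491, and 0.0536 with the replicate block), and the call held in 2 of 8 fits that left out a sample. Psmd14 (Rpn11), the deubiquitinase that removes the ubiquitin chain, was at 50.3, 40.6, 42.2 and 42.4 FPKM in WT and at 40.8, 40.0, 24.9 and 30.9 FPKM in MG53-TG, and did not pass (log2 fold change -0.37 ± 0.16, limma adjusted p = 0.0900). Psmd6 and Psmd13 were at -0.29 and -0.03. Psmd8 was at 0.21 and had the widest interval of the lid, from -0.37 to 0.80, with single high samples in both groups (35.3 FPKM in WT 4 and 39.5 FPKM in MG53-TG 3).

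**Figure D3:**
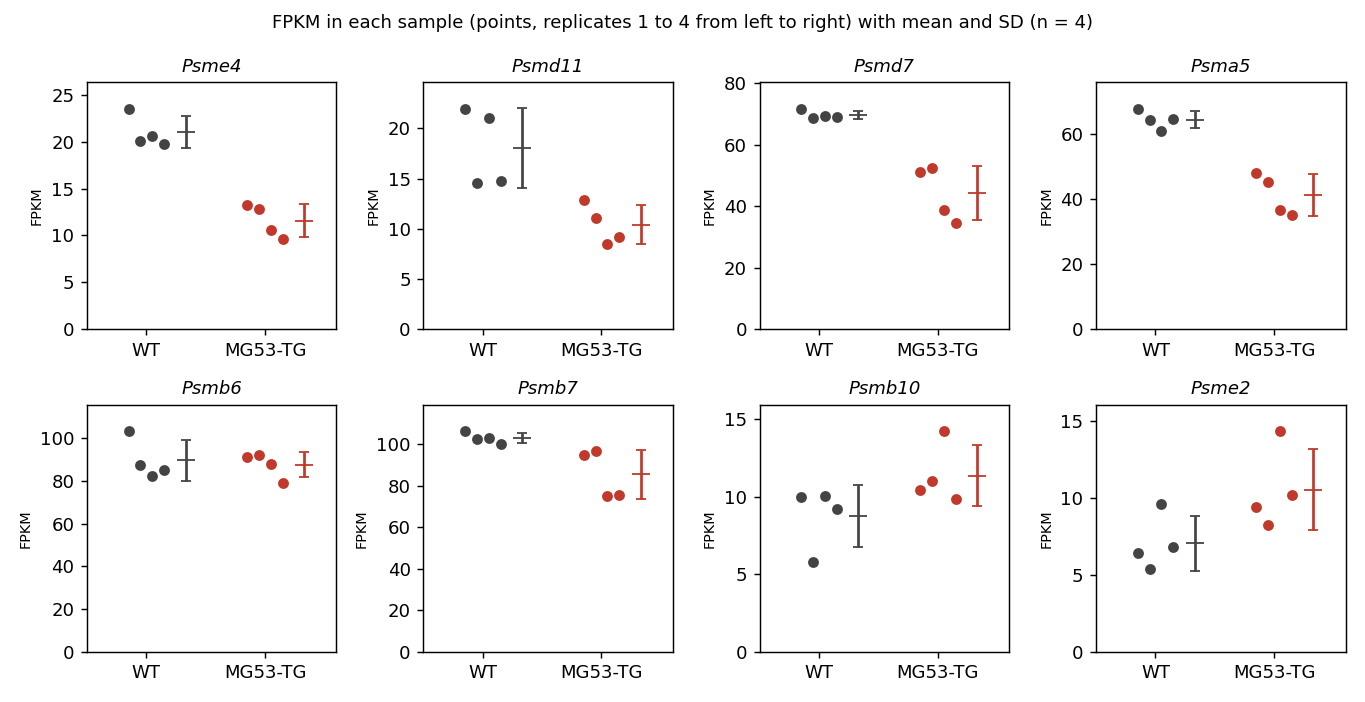
FPKM of 8 genes in each sample (points, replicates 1 to 4 from left to right, y axis from 0), with mean and SD (n = 4). The groups are separate in Psme4, Psmd11, Psmd7, Psma5 and Psmb7, and they overlap in Psmb6, Psmb10 and Psme2.

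In the base, the scaffold Psmd2 (Rpn1), which docks ubiquitin shuttles (chromosome 16, 20651652 to 20663414), was the single call. It was at 64.0, 71.2, 67.6 and 69.7 FPKM in WT and at 55.5, 55.4, 41.2 and 39.7 FPKM in MG53-TG, and fell by 0.51 ± 0.13 on the log2 scale (limma adjusted p = 0.0119). The groups did not overlap. The 6 ATPase genes Psmc1 to Psmc6 had log2 fold changes from -0.26 (Psmc3 and Psmc6) to 0.02 (Psmc4), and none passed. Psmc6 was the only ATPase gene whose groups did not overlap, at 46.8, 44.6, 50.7 and 44.6 FPKM in WT and at 38.8, 40.0, 43.1 and 33.9 FPKM in MG53-TG (limma adjusted p = 0.0581). In Psmc3, Psmc4 and Psmc5, MG53-TG 1 and 2 lay within or above the WT range and MG53-TG 3 and 4 lay below it. The ubiquitin receptor Psmd4 (Rpn10) varied within both groups, from 34.2 to 52.6 FPKM in WT and from 24.97 to 41.5 FPKM in MG53-TG. Psmd1 (Rpn2), whose start entry is filed under Armc9, was at 28.8, 27.5, 21.8 and 27.0 FPKM in WT and at 21.4, 24.3, 17.7 and 20.4 FPKM in MG53-TG when assigned by exon boundaries. Its groups overlapped and it did not pass (log2 fold change -0.31 ± 0.13, limma adjusted p = 0.0742).

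Core and cap were then set against each other in each sample. The mean log2(FPKM + 1) of the 14 core genes minus that of the 16 cap genes was 0.37, 0.32, 0.51 and 0.41 in WT 1 to 4 and 0.49, 0.44, 0.60 and 0.55 in MG53-TG 1 to 4. The difference was larger by 0.12 in MG53-TG on average, with SDs of 0.08 in WT and 0.07 in MG53-TG, and the groups overlapped, since WT 3 exceeded MG53-TG 1 and 2. Without MG53-TG 3 and 4 it was 0.07. Core genes summed to 895 to 944 FPKM in WT and 720 to 883 FPKM in MG53-TG, and cap genes to 695 to 774 FPKM and 515 to 693 FPKM. The ratio of these sums was 1.25 ± 0.06 in WT and 1.35 ± 0.07 in MG53-TG (SD, n = 4). As a score over the members it was given no p.

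**Figure D4:**
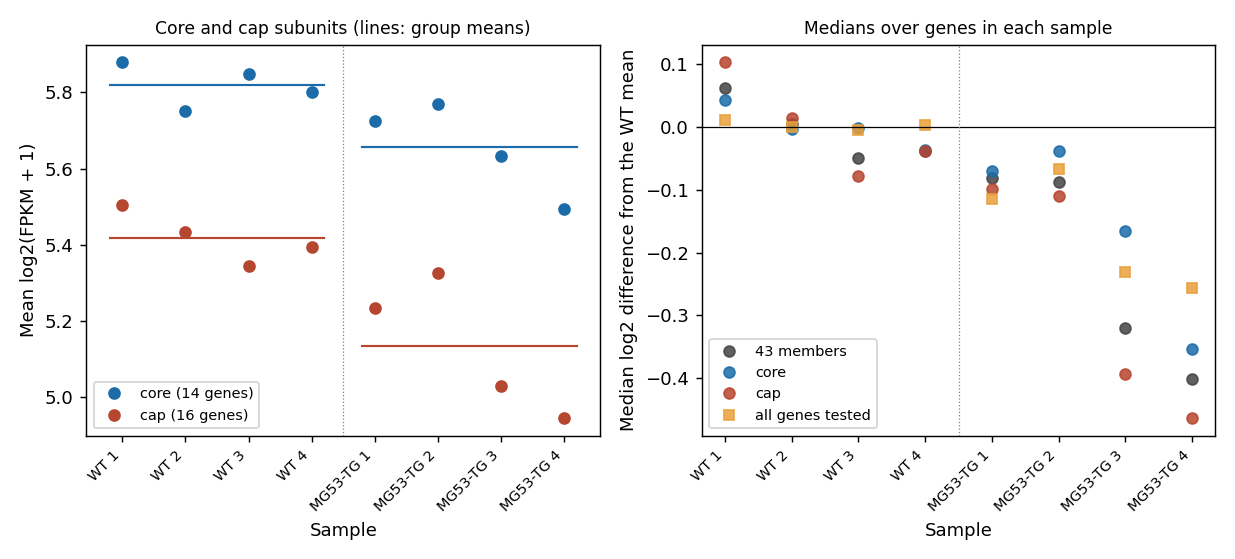
Left, mean log2(FPKM + 1) of core and cap genes in each sample with group means as lines; right, the median difference from the WT mean over members, core, cap and all genes tested. In MG53-TG 1 to 4 the medians of all genes are -0.12, -0.07, -0.23 and -0.26, and those of the members -0.08, -0.09, -0.32 and -0.40. Cap medians are -0.10, -0.11, -0.39 and -0.46, and core medians are -0.07, -0.04, -0.17 and -0.35.

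Of the activators that bind the core in place of the cap, Psme4 was the single call. Psme4 (PA200, chromosome 11, 30771726 to 30880361), a nuclear activator linked to the breakdown of acetylated histones, was at 23.5, 20.1, 20.6 and 19.8 FPKM in WT and at 13.2, 12.9, 10.6 and 9.58 FPKM in MG53-TG. It fell by 0.82 ± 0.12 on the log2 scale (limma adjusted p = 0.00104), the largest fall of a proteasome gene here, to 0.550 of the WT mean. The 2 groups were well apart. The exact permutation test over the 70 relabellings gave its smallest possible two-sided p of 0.0286. Any gene with 4 values per group and no overlap gets this p, so it adds nothing to the lack of overlap. Psme1 and Psme2 encode the α and β subunits of PA28, the interferon-inducible activator. Psme2 was at 6.41, 5.35, 9.57 and 6.82 FPKM in WT and at 9.39, 8.23, 14.3 and 10.2 FPKM in MG53-TG (log2 fold change 0.52 ± 0.20, limma adjusted p = 0.0609), with WT 3 above MG53-TG 1 and 2. It was called higher after median-of-ratios scaling and quantile normalization (limma adjusted p = 0.0357 and 0.0371), with the replicate number as a block (0.0123), and without WT 3 or MG53-TG 2 (0.0280 and 0.0404). Without MG53-TG 3 and 4 it was at 0.31 (limma adjusted p = 0.281). Psme1 was at 22.7, 13.5, 16.9 and 15.8 FPKM in WT and at 27.1, 18.8, 20.4 and 15.96 FPKM in MG53-TG, which overlapped (0.24 ± 0.19, limma adjusted p = 0.333). Its log2 fold change was 0.10 without MG53-TG 1, 0.14 without WT 2, 0.37 without WT 1 and 0.42 after median-of-ratios scaling (limma adjusted p = 0.0887). Psme3, the nuclear PA28γ, was at 61.1, 59.5, 69.6 and 57.8 FPKM in WT and at 74.1, 53.5, 41.9 and 43.6 FPKM in MG53-TG, with MG53-TG 1 above and the others below the WT range (-0.25 ± 0.17, limma adjusted p = 0.272). Without MG53-TG 1 it was called lower (-0.42, limma adjusted p = 0.0229), while the log2 fold change was -0.15 without MG53-TG 3 and -0.06 after median-of-ratios scaling. The inhibitor Psmf1 varied from 4.35 to 11.6 FPKM within WT alone.

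Among the assembly chaperones, the calls were the partners Psmg1 and Psmg2, whose proteins together start the alpha ring. Psmg1 was at 22.0, 24.3, 18.1 and 19.6 FPKM in WT and at 16.8, 18.1, 13.97 and 13.1 FPKM in MG53-TG, and fell by 0.42 ± 0.14 on the log2 scale (limma adjusted p = 0.0330). Psmg2 was at 22.1, 27.9, 22.3 and 22.2 FPKM in WT and at 18.7, 20.9, 12.0 and 10.9 FPKM in MG53-TG, and fell by 0.61 ± 0.21 (limma adjusted p = 0.0389). In neither did the groups overlap, although WT 3 and MG53-TG 2 of Psmg1 nearly met, at 18.114 and 18.055 FPKM, and the calls held in 3 and 2 of 8 fits that left out a sample. The base chaperones Psmd5, Psmd9 and Psmd10 were at -0.26, -0.15 and -0.18 and did not pass. Psmg4 was at 0.14. Psmg3 was at 0.12, but 45.5% to 98.4% of its end FPKM per sample came from an end outside its exons. Assigned by exon boundaries, Psmg3 was at 15.8, 10.2, 11.02 and 13.7 FPKM in WT and at 9.26, 9.65, 3.94 and 8.48 FPKM in MG53-TG (log2 fold change -0.68 ± 0.26, limma adjusted p = 0.0590), so its direction depended on the assignment. Psmc3ip was at 2.14, 3.22, 1.29 and 2.99 FPKM in WT and at 0.798, 1.01 and 0.285 FPKM in MG53-TG 1 to 3, and was missing in MG53-TG 4 and left out there (log2 fold change -0.99 ± 0.26, limma adjusted p = 0.0159).

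Levels also differed between subunits. On the FPKM scale, WT means of core genes ranged from 8.78 (the replacement subunit Psmb10) and 20.5 (Psma3) to 120.1 (Psmb3), with a median of 65.1, and those of cap genes from 16.9 (Psmd13) to 71.8 (Psmc5), with a median of 44.5. The chaperones had a median of 14.8 FPKM and the activators or inhibitors of 17.2 FPKM. The summed FPKM of all members, 9 of which enter with their end FPKM, equalled 0.676% to 0.721% of the summed start FPKM of all genes in WT and 0.648%, 0.658%, 0.535% and 0.501% of it in MG53-TG 1 to 4. These ratios of the groups did not overlap, and MG53-TG 3 and 4 had the lowest. All genes tested also lay lower, with median log2 differences from the WT mean of -0.12, -0.07, -0.23 and -0.26 in MG53-TG 1 to 4. Whether the ratios fell by more than that was not tested.

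The genes around the proteasome were read from a list of 39, of which 35 had a value and were tested. In MG53-TG, 9 were lower (25.7%, against 29.3% of all genes tested) and 2 higher (5.71%, against 15.7%). The higher genes were the immunoproteasome subunit Psmb9 and Nfe2l2, which encodes the antioxidant factor NRF2. Psmb9 was at 0.633, 1.06, 1.66 and 0.693 FPKM in WT and at 1.89, 2.46, 2.95 and 3.48 FPKM in MG53-TG, with no overlap (log2 fold change 0.89 ± 0.20, limma adjusted p = 0.00710). The difference was 1.39 with a pseudocount of 0.1, and the call was lost without MG53-TG 3 and 4 (0.68, limma adjusted p = 0.0591). Psmb8, its companion in the immunoproteasome, was at 0.928, 0.880, 1.15 and 0.998 FPKM in WT and at 0.766, 0.795, 0.327 and 0.491 FPKM in MG53-TG, also with no overlap, and did not pass (-0.33 ± 0.14, limma adjusted p = 0.0793). Its difference was -0.71 with a pseudocount of 0.1 and -0.16 without MG53-TG 3 and 4. Both were scarce beside the constitutive Psmb6 and Psmb7.

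Nfe2l1, the factor that restores proteasome gene transcription, was at 29.6, 27.0, 29.6 and 26.8 FPKM in WT and at 18.6, 20.7, 19.3 and 19.2 FPKM in MG53-TG. It fell by 0.52 ± 0.09 on the log2 scale (limma adjusted p = 0.00162), and MG53-TG 3 and 4 were no lower than 1. Nfe2l2 was at 77.7, 72.7, 80.5 and 82.0 FPKM in WT and at 93.9, 91.3, 113 and 115 FPKM in MG53-TG, and rose by 0.39 ± 0.10 (limma adjusted p = 0.0140). Both factors separated the groups, in opposite directions. The largest falls among the partners called were Ecpas, a scaffold that binds the 26S particle, the ubiquitin shuttle Rad23b and the proteasome-bound thioredoxin Txnl1. Ecpas was at 24.8, 23.1, 25.4 and 21.5 FPKM in WT and at 15.01, 14.3, 10.2 and 15.8 FPKM in MG53-TG (log2 fold change -0.75 ± 0.14, limma adjusted p = 0.00292). Rad23b was at 77.4, 72.8, 88.9 and 73.2 FPKM in WT and at 56.6, 56.0, 44.0 and 43.7 FPKM in MG53-TG (-0.64 ± 0.12, limma adjusted p = 0.00320). Txnl1 was at 33.8, 32.3, 33.6 and 27.8 FPKM in WT and at 20.1, 22.4, 20.1 and 18.2 FPKM in MG53-TG (-0.63 ± 0.10, limma adjusted p = 0.00148). In all 3 the groups did not overlap.

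The other partners called lower were Nfya, Akirin2, which carries proteasomes into the nucleus, Ube3a, Ubqln1 and Ube3c. After median-of-ratios scaling the calls of Nfya, Ube3a and Ube3c were lost (limma adjusted p = 0.0918, 0.0744 and 0.213), and with the replicate block those of Nfya and Ube3c (limma adjusted p = 0.0691 and 0.0847). The core maturation factor Pomp was at 33.01, 48.6, 31.9 and 31.6 FPKM in WT and at 34.8, 32.3, 35.4 and 31.4 FPKM in MG53-TG, which overlapped (log2 fold change -0.09 ± 0.14, limma adjusted p = 0.628). The ubiquitin receptor Adrm1 ranged from 19.1 to 36.6 FPKM in WT and from 19.1 to 36.1 FPKM in MG53-TG (0.01 ± 0.27, limma adjusted p = 0.987).

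The calls depended on the scaling of the samples. The median-of-ratios factors were 1.07 to 1.09 in WT and 0.994, 1.03, 0.896 and 0.871 in MG53-TG 1 to 4, and this scaling moved the median over all genes tested by 0.16 on the log2 scale, from -0.17 to -0.01. After it, 7 members were lower (Psme4, Psmd11, Psmd7, Psma5, Psmd2, Psmd3 and Psmc3ip), against 20.4% of all genes, and 2 were higher (Psme2 and Psmg4), against 20.8%. The core median was then 0.07 and the cap median -0.09. The scaling turned 11 members from below to above 0, none of them called (Psma6, Psma7, Psmb1, Psmb2, Psmb4, Psmb6, Psmc2, Psmc5, Psmd9, Psmd13 and Psmf1). Without MG53-TG 3 and 4, a setting chosen after seeing the data, 5 members were lower (22.3% of all genes) and 0 were higher (13.4%). These 5 were Psme4, Psma5, Psmd2, Psmd3 and Psmd7.

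**Figure D5:**
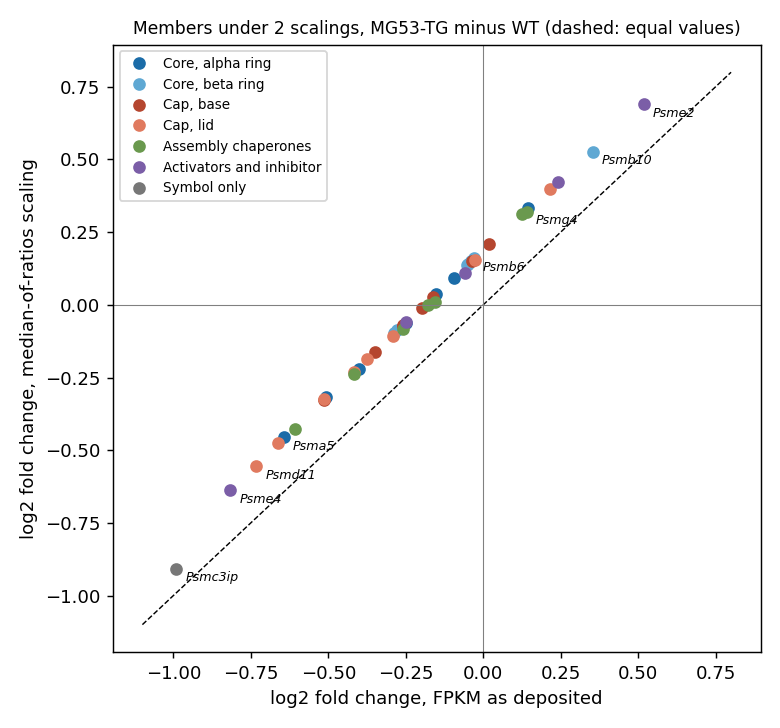
Log2 fold change of each member as deposited (x axis) and after median-of-ratios scaling (y axis), coloured by class, with a dashed line for equal values. The points lie parallel to the line and above it, by 0.19 in the median over members, so several members slightly below 0 as deposited lie above 0 after the scaling, while Psme4 and Psmd11 stay below 0.

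The deposited values belong to transcript starts and ends, and these were also followed. There were 90 start and 54 end entries for the 43 members, and 18 members had a single start. The starts of a few genes shifted between samples of the same group. In Psme2, the downstream start at 55590842 to 55591087 (chromosome 14) carried 73.0%, 86.3%, 56.0% and 100.0% of the start FPKM in WT 1 to 4 and 10.1%, 19.1%, 88.1% and 65.7% in MG53-TG. In Psme1, the first start carried 76.8% in WT 1 but 0% in WT 2, 3 and 4, and 37.5% to 73.6% in MG53-TG. In Psmc2, the usual start carried at least 75.4% in every sample other than MG53-TG 2, where it was at 0%. These shares varied widely within groups and were not tested. End entries summed to less than 10% of the start FPKM in 6 members that had any, among them Psme4 (0.715%) and Psmd3 (1.02%), and to over 10 times the start FPKM in Psmd6, so a gene's value rested on one kind of entry in these genes.

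Some reads may not be separable from those of other genes. Psmb6 and Psmb7 have annotated pseudogene copies and Psme2 has the copy Psme2b, so their values are uncertain to that extent. Another protein-coding gene overlapped 10 members, of which only Psmc3ip was called, and the strand setting of the libraries was not given in the sources used here.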

How the data were processed

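RNA of 4 WT and 4 MG53-TG organoid samples was sequenced. The authors trimmed reads with Cutadapt 1.9.1, mapped them with Hisat2 2.0.1 to mm10 (per the labels), normalized FPKM with HTSeq 0.6.1 (written Heseq in the methods), and deposited FPKM values per transcript event. The tool that made the event tables was not given in the sources used here. The smallest FPKM was 1e-06, so whole reads could not be recovered, and depth and counting intervals are unknown.

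A gene's value was the sum of its TSS (start) entries, or of its TTS (end) entries where that mean was higher. A gene with no entry of the kind used was, in that sample, either missing or 0. It was missing where the group's other samples reached a median of 0.5 FPKM (561 of 13706 genes had a missing value), and otherwise 0. Groups were compared with limma 3.58.1 (lmFit, eBayes with trend) in R 4.3.3 on log2(FPKM + 1), which understates changes of low genes, with Benjamini-Hochberg adjustment over 10707 genes at a threshold of 0.05. Gene positions are from GENCODE M21 on GRCm38, and 13732 of 13739 identifiers had a symbol in a separate list of gene names. The promoters are from RefSeq. Python 3.11.15, numpy 2.4.6 and pandas 2.3.3 were used for the rest, and the fit was tested on simulated data.

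Values in every sample were given for the catalytic subunits, the activators, the 3 called members with the largest log2 fold change in each class, any called against the majority, and, of the partners, Psmb8, Psmb9, Pomp, Nfe2l1, Adrm1 and the 3 largest calls. Other genes with per-sample values, among them Psmb3, Psmc6, Psmd12, Psmd14 and Nfe2l2, were chosen after their values were seen. The members and lists were chosen with earlier results of these data known. Alternatives were a pseudocount of 0.1, a filter at 2 FPKM or none, quantile normalization, median-of-ratios scaling, a block for the replicate number, absent entries as 0, starts or ends alone, each sample left out, and, chosen after seeing the data, assignment by exon boundary and leaving out MG53-TG 3 and 4.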

Additional observations from a re-analysis of the deposited data

Results flagged for a closer look

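A sample far from the other 3 of its group was found in 6 of 85 groups of 4 values, where chance gives about 4.25. In WT these were Psma7 at 82.5 FPKM, Psmc1 at 67.8 FPKM and Psmd8 at 35.3 FPKM in sample 4, Psmd7 at 71.7 FPKM in sample 1 and Psmg2 at 27.9 FPKM in sample 2. In MG53-TG it was Psmd6 at 17.3 FPKM in sample 4. The WT samples of Psmc1 and Psmd7 lay so close together that the distances are small in FPKM. The fall of Psmg2 was not called without WT 2, nor without any other WT sample or MG53-TG 3 or 4.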

How the results depend on the processing

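The count of 12 members lower was within 1.5 times under the other 9 alternatives that kept all samples. It was 7 after median-of-ratios scaling, 5 without MG53-TG 3 and 4, and 7 to 15 when single samples were left out, with the fewest without WT 1 or without MG53-TG 3. Calls in either direction over all genes also varied, from 4816 in the main fit to 4403 after median-of-ratios scaling and 3804 without MG53-TG 3 and 4. With single samples left out they ranged from 3858 (MG53-TG 3) to 5124 (MG53-TG 2), so the member counts are not particular to the members. The count of 0 higher became 2 after median-of-ratios scaling and after quantile normalization, 1 with TTS entries alone, 1 with the replicate block, and 0 to 1 with single samples left out. The count of 11 partners called was 7 with TTS entries alone and 7 without MG53-TG 3 and 4. The core minus cap difference kept its sign in every alternative, between 0.07 and 0.17. Among all members, 11 changed sign after median-of-ratios scaling, 4 after quantile normalization, 2 with TSS and 3 with TTS entries alone. Of the genes named by rule, Psmb6 was at 0.16 after median-of-ratios scaling, from -0.069 to 0.039 with single samples left out, and at 0.037 without MG53-TG 3 and 4. Psme3 was at 0.026 without MG53-TG 3 and 4. Psmd3 was at 0.041 with TTS entries alone, which hold 1.02% of its start FPKM. Pomp was at 0.095 after median-of-ratios scaling and from -0.15 to 0.053 with single samples left out, positive without WT 2. Adrm1 ranged from -0.14 to 0.16 with single samples left out. The causes were not tested. Psma5, Psmd11, Psmd2, Psmd3, Psmd7 and Psme4 stayed called in all 8 fits with a sample left out. Across all genes, same-numbered samples did not deviate together (r of -0.04 to 0.10). With 4 samples per group this cannot settle whether the numbers pair samples, which stayed unknown. The replicate block gave 11 members lower and 4390 genes called. Depth is unknown and sets no stated limit.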
